A study of Mus musculus with 28 samples.

Results

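The 9 trophectoderm genes Cdx2, Eomes, Elf5, Tfap2c, Gata3, Ets2, Krt8, Krt18 and Tead4 were followed in CUT&Tag profiles of active chromatin in mouse embryonic stem cells (mESCs). A region belonged to a gene when that gene's transcription start site (TSS) was the nearest protein-coding one on mm10 and lay within 50 kb of the region's centre. This gave 94 regions out of 80025 regions within 50 kb of a TSS and 127646 regions in all, and 9 of 17688 genes with a region. All cells carried the FOXD3-iKO genotype, an inducible knockout of the forkhead factor FOXD3, controls included, and were grown in L2i medium with a treatment time of 24 h. H3K27ac was profiled in asynchronous cells with 2 samples treated with 4-hydroxytamoxifen (4HT), the inducer used for such alleles, and 2 treated with the solvent EtOH. H2BK120ac was profiled with 3 samples in each of the groups coded TD, ED, TT and ET, and the labels spell out neither letter, so which of them had lost FOXD3 is not known here. The labels name neither the ESC clone nor a Cre driver. A further 12 samples, sorted by phase of the cell cycle, are not analysed here.

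Trophectoderm is the outer epithelium of the blastocyst and forms the trophoblast of the placenta, while embryonic stem cells stand for the inner cell mass. TEAD4, with its coactivator YAP, switches on Cdx2 in outer cells of the embryo. CDX2, EOMES, ELF5, TFAP2C, GATA3 and ETS2 are transcription factors of trophoblast stem cells, and KRT8 and KRT18 pair into the first keratin filaments of the embryo. In CUT&Tag an antibody directs a transposase to chromatin that carries a mark, and acetylation of these lysines of H3 and H2B marks active promoters and enhancers.

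Each group was deposited as 1 merged column, so no replicate spread could be computed and no test was run. The value of a region is its mean coverage in CPM over its covered bases, which is a scale per length, and the value of a gene is the mean over its regions with missing coverage as 0. The value that occurs most often in a group was taken to be 1 fragment, which implied 4.82 M fragments for 4HT and 6.08 M for EtOH, and 2.25 M to 2.43 M for the H2BK120ac groups. A pile-up is such a value in units of 1 fragment, a mean depth and not the number of fragments in a region. Intervals are 95% counting intervals that treat summed pile-ups as counts, and they leave out the variation between cultures. In bulk chromatin, fewer cells with a mark and less mark per cell cannot be told apart. All 8 embryonic stem cell markers examined lay above the median of all genes in H3K27ac, and their list median was 1.56 in 4HT and 1.15 in EtOH. None of 6 primitive endoderm markers did in either group, and 1 of 6 fibroblast feeder markers did in each. The summed H3K27ac level of the stem cell markers was 17.5 in 4HT and 13.4 in EtOH, that of the primitive endoderm markers 0.636 in 4HT and 0.99 in EtOH, and that of the feeder markers 1.3 in 4HT and 1.41 in EtOH. No marker of these lists was at 0 in H3K27ac. In H2BK120ac the stem cell markers summed to 10.4 in TD and 5.27 in ED, and to 8.45 in TT and 6.33 in ET. The feeder markers summed to 0.785 in TD and 1.11 in ED, and to 0.93 in TT and 2.35 in ET, with 1 of 6 at 0 in TD and 2 in ED. The primitive endoderm markers summed to 1.54 in TD and 2.22 in ED, and to 1.68 in TT and 1.79 in ET, with 1 of 6 at 0 in ET. The lists were less clearly separated in H2BK120ac. Of the stem cell markers 7 of 8 lay above the median gene in ED and all 8 in TD, TT and ET. Of the primitive endoderm markers 3 of 6 did in TD, ED and TT and 2 in ET. Of the feeder markers 1 of 6 did in ED, 2 in ET and none in TD or TT. At Foxd3, the targeted gene, H3K27ac averaged 2.23 in 4HT and 1.19 in EtOH over 20 regions. Coverage of a mark around the gene does not measure its deletion.

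Levels differed widely among the trophectoderm genes. Tfap2c, Gata3 and Tead4 were above the median gene in both H3K27ac groups, whereas Cdx2, Eomes, Elf5, Ets2 and Krt8 were below it in both. Krt18 was above it in 4HT and just below it in EtOH, and Ets2 was at the 22.4th percentile of all genes in 4HT and the 46.9th in EtOH. The median of the 9 gene means was 0.194 in 4HT and 0.264 in EtOH for H3K27ac, against a median over all genes of 0.298 in 4HT and 0.281 in EtOH. For H2BK120ac the median of the 9 was 0.327 in TD, 0.516 in ED, 0.323 in TT and 0.45 in ET, against 0.332 in TD, 0.351 in ED, 0.343 in TT and 0.362 in ET over all genes. In H2BK120ac 7 of the 9 genes exceeded the median gene in ED and 6 did in ET, and 4 did in TD and in TT.

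**Figure D1:**
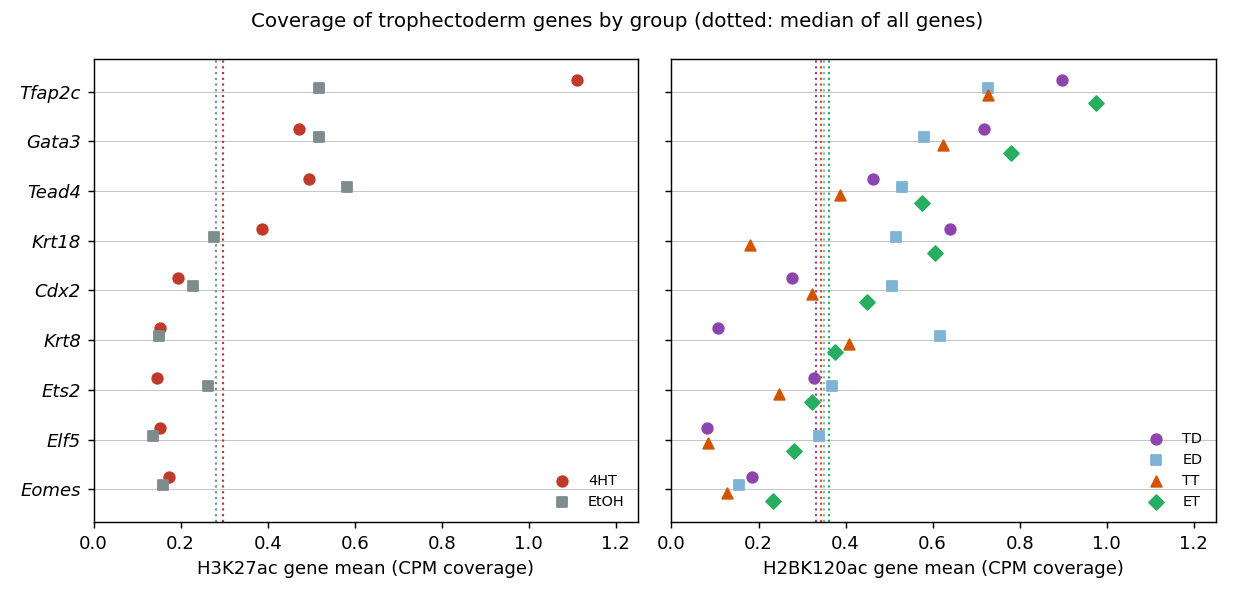
Gene means (CPM coverage, x axis) of the 9 trophectoderm genes in the 2 H3K27ac groups (left) and the 4 H2BK120ac groups (right), 1 point per merged column, with dotted lines at the median of all genes. Tfap2c in 4HT stands apart at 1.11, and Elf5 and Eomes are among the lowest in both marks.

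Tfap2c (chromosome 2, 172545678 to 172558622), the gene of the AP-2 gamma factor of trophoblast and germ cells, had the highest H3K27ac level of the 9 in 4HT. Its mean over 12 regions was 1.11 in 4HT (0.852 to 1.41) and 0.519 in EtOH (0.369 to 0.715). These intervals do not overlap, and the means lay at the 88.2nd percentile of all genes in 4HT and the 74.5th in EtOH. In H2BK120ac it was 0.898 in TD and 0.727 in ED, and 0.727 in TT and 0.976 in ET, the highest of the 9 genes in each group.

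Tead4 (chromosome 6, 128227143 to 128300813), the gene of the DNA-binding partner of YAP, had 22 regions, the most of any member. Its H3K27ac mean was 0.496 in 4HT (0.374 to 0.653) and 0.582 in EtOH (0.461 to 0.728), the highest of the 9 in EtOH. Gata3 (chromosome 2, 9857078 to 9887953), the gene of a zinc finger factor that acts beside CDX2, had 0.471 in 4HT (0.307 to 0.679) and 0.519 in EtOH (0.369 to 0.715) over 12 regions. The intervals of Tead4, Gata3 and Tfap2c overlapped in EtOH, so their order in EtOH is not resolved. In 4HT those of Tead4 and Gata3 overlapped, and that of Tfap2c lay above both. In H2BK120ac Gata3 had 0.719 in TD and 0.581 in ED, and 0.623 in TT and 0.779 in ET. Tead4 had 0.464 in TD and 0.529 in ED, and 0.387 in TT and 0.576 in ET.

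Cdx2, Eomes and Elf5 had low H3K27ac in every region, unlike Tfap2c, Gata3 and Tead4, which also act in the trophoblast fate. Cdx2 (chromosome 5, 147300900 to 147307249), the homeobox factor that represses Pou5f1 in outer cells, had an H3K27ac mean of 0.194 in 4HT (0.076 to 0.451) and 0.228 in EtOH (0.095 to 0.432) over 6 regions. Eomes (chromosome 9, 118478186 to 118486132), a T-box factor of trophoblast stem cells, had 0.173 in 4HT (0.088 to 0.314) and 0.159 in EtOH (0.088 to 0.281) over 13 regions. Elf5 (chromosome 2, 103412098 to 103450989), an ETS factor that sustains Cdx2 and Eomes, had 0.152 in 4HT (0.058 to 0.299) and 0.137 in EtOH (0.057 to 0.259) over 10 regions. The highest region of each of these 3 genes stayed at or below 0.423 in both groups, a pile-up of about 2. Their intervals overlapped each other and those of Krt8 and Ets2.

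Ets2 (chromosome 16, 95702407 to 95721049), an ETS factor downstream of FGF signalling, had an H3K27ac mean of 0.146 in 4HT (0.051 to 0.301) and 0.264 in EtOH (0.14 to 0.43) over 9 regions. Its highest region was the promoter, described next. Krt8 (chromosome 15, 101996711 to 102004342) had 0.153 in 4HT (0.048 to 0.346) and 0.15 in EtOH (0.052 to 0.307) over 7 regions. Krt18 (chromosome 15, 102028216 to 102032026) had 0.387 in 4HT (0.152 to 0.903) and 0.277 in EtOH (0.089 to 0.64) over 3 regions. The keratin genes are neighbours, and the span between them was split between them by distance alone. Of the 7 Krt8 regions, 3 lay inside the span of Krt78.

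Of the 94 regions 12 lay within 1 kb of a TSS (12.8%, against 22.7% of all assigned regions) and 82 lay farther off. The annotation gives gene spans without exons, and 42 of the 94 lay inside a protein-coding span and 52 outside. At the 12 promoter regions the mean H3K27ac was 0.299 in 4HT and 0.283 in EtOH, against 0.685 in 4HT and 0.568 in EtOH at 18140 promoter regions of all genes. At the 82 distal regions it was 0.424 in 4HT and 0.377 in EtOH, against 0.518 in 4HT and 0.438 in EtOH for all genes. For H2BK120ac the mean at member promoter regions was 0.443 in TD and 0.494 in ED, and 0.475 in TT and 0.428 in ET. At promoter regions of all genes it was 0.715 in TD and 0.427 in ED, and 0.696 in TT and 0.436 in ET. At the member distal regions it was 0.424 in TD and 0.476 in ED, and 0.354 in TT and 0.543 in ET. At distal regions of all genes it was 0.445 in TD and 0.428 in ED, and 0.429 in TT and 0.457 in ET. These means carry no interval, so whether member promoters and distal regions differ is not resolved. Ets2 had the highest H3K27ac promoter value, in a region of 1062 bp at chromosome 16, 95701830 to 95702891, with 0.695 in 4HT and 0.997 in EtOH. The Tead4 promoter region at chromosome 6, 128299944 to 128300997, had 0.683 in 4HT and 0.829 in EtOH. The Tfap2c promoter region at chromosome 2, 172549410 to 172549597, is 188 bp wide, around a TSS inferred from a deposited window. It was without H3K27ac coverage in 4HT and in EtOH, although the gene was the most strongly marked of the 9 in 4HT. The nearest regions beyond 1 kb had coverage. Those 1068 and 1372 bp downstream had 0.452 and 0.289 in 4HT, and 0.263 and 0.314 in EtOH. The one 2281 bp upstream had 0.468 in 4HT and 0.165 in EtOH. The Cdx2 promoter region at chromosome 5, 147306313 to 147307255, had 0.382 in 4HT and 0.165 in EtOH.

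RefSeq promoter sequences (GRCm38.p6, 250 bases before to 50 after the start) matched 7 of the 9 genes, with Tfap2c and Tead4 not among them. The ones shown are those of the promoter region highest in H3K27ac (Ets2), of the lineage determinant Cdx2, of Gata3 and of the neighbouring keratin genes, which differ in CpG content and in motif letters. Capitals mark matches, on either strand, to a forkhead core (TGTTTA), a TEAD motif (GGAATG), an AP-2 motif (GCCNNNGGC) or a GATA motif (AGATAA), and none of the marked matches overlap.
Ets2: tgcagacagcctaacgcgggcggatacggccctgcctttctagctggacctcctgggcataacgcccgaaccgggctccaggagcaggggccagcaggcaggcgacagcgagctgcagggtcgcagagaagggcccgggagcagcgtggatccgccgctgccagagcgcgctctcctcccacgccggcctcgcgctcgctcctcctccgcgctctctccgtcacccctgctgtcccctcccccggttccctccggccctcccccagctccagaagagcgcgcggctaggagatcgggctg
Cdx2: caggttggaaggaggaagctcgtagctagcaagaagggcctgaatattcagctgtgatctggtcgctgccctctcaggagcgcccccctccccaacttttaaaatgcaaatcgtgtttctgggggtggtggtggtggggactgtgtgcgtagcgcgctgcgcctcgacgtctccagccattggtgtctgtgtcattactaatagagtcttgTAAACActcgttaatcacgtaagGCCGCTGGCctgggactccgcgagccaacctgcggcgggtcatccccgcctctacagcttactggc
Gata3: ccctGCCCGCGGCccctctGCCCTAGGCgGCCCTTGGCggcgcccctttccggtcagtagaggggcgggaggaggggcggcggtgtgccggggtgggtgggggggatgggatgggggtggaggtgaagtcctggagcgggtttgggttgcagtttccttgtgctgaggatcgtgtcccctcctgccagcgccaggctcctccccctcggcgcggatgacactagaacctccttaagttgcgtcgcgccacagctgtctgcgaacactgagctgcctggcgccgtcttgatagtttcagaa
Krt8: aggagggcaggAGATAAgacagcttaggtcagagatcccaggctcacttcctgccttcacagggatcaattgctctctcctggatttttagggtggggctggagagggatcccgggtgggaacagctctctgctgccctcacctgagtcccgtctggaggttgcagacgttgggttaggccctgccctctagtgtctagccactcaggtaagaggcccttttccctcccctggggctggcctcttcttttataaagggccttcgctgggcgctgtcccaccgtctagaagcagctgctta
Krt18: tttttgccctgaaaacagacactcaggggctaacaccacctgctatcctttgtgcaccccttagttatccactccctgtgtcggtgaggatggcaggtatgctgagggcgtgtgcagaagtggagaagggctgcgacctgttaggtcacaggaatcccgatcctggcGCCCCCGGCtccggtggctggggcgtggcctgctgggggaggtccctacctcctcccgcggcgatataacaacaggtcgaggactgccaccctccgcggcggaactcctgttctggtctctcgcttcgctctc
The Ets2 window, at chromosome 16, 95702157 to 95702456 (plus strand), held 30 CpG dinucleotides and no match. The Cdx2 window, at chromosome 5, 147307200 to 147307499 (minus strand), held 18 CpG, 1 forkhead match and 1 AP-2 match. The Gata3 window, at chromosome 2, 9878551 to 9878850 (minus strand), held 22 CpG and 3 AP-2 matches. The Krt8 window, at chromosome 15, 102004293 to 102004592 (minus strand), held 6 CpG and 1 GATA match. The Krt18 window, at chromosome 15, 102027966 to 102028265 (plus strand), held 17 CpG and 1 AP-2 match. The median promoter held 13 CpG. Elf5 has 2 annotated starts, so 8 member windows were searched. A forkhead match was present in 1 of 8 (11.5% of 21263 promoters), a TEAD match in 1 (13.6%), a GATA match in 1 (9.65%) and an AP-2 match in 3 (19.9%). A match is a string of letters and was not shown to be a bound site.

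H3K27ac in 4HT against EtOH is the comparison for inducing FOXD3 depletion, which no table here measures. Among the trophectoderm genes Tfap2c was the one whose counting interval left out 1, and the share of all genes with such an interval is not given here. The 2 gene means given above made a ratio of 2.14 (1.40 to 3.26) and a log2 fold of 0.87 on log2(value + 0.2), which understates low genes. The median log2 fold of genes in the same decile of level was 0.25. The Tfap2c fold lay at the 96.6th percentile of all genes and the 96.1st of that decile, where 2.15% were at least 2-fold higher. As the highest of 9 genes, Tfap2c cannot be set apart from such shares. Coverage was higher in 4HT in 9 of its 12 regions and lower in 2, and 1 had none. At equal pile-ups a region counts as higher in 4HT, since 1 fragment is 0.207 in 4HT and 0.165 in EtOH. The share of all regions higher in 4HT is not given. No member reached 2-fold on this scale in either direction, where 2.40% of all genes were higher by that much and 1.29% lower. After quantile normalization 0.752% were higher and 1.53% lower, and after scaling to one median 0.69% and 1.67%. The members' log2 folds ran from -0.42 to 0.87 with a median of 0.01, and the median over all genes was 0.08. Quantile normalization set the median over all genes at -0.03 and left Tfap2c at 0.65.

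The largest Tfap2c differences lay in a few distal regions, most of them downstream of the gene. The strongest region, 27782 bp downstream of the TSS at chromosome 2, 172576842 to 172577908, had 4.17 in 4HT and 2.08 in EtOH (ratio 2.01, 0.918 to 4.24). A region 18752 bp downstream, at 172567879 to 172568811, had 2.68 in 4HT and 1.01 in EtOH (ratio 2.66, 0.968 to 8.76). A region 32928 bp upstream, at 172516206 to 172517125, had 2.67 in 4HT and 0.87 in EtOH (ratio 3.07, 1.10 to 11.7). Each of these was higher in 4HT by a ratio above 2, and of their intervals only the upstream interval left out 1. A weaker region at 172583218 to 172583672 had 0.958 in 4HT and 0.236 in EtOH (ratio 4.06, 0.705 to 298). All 4 lay outside protein-coding spans. Among 22 member regions with a summed pile-up of 5 or more, 3 were at least 2-fold higher in 4HT and none lower, against 8.07% higher and 2.48% lower of 21754 such regions of all genes, and the 3 were the Tfap2c regions with ratios of 2.66, 3.07 and 4.06. With the pseudocount the strongest region had a log2 fold of 0.94.

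**Figure D2:**
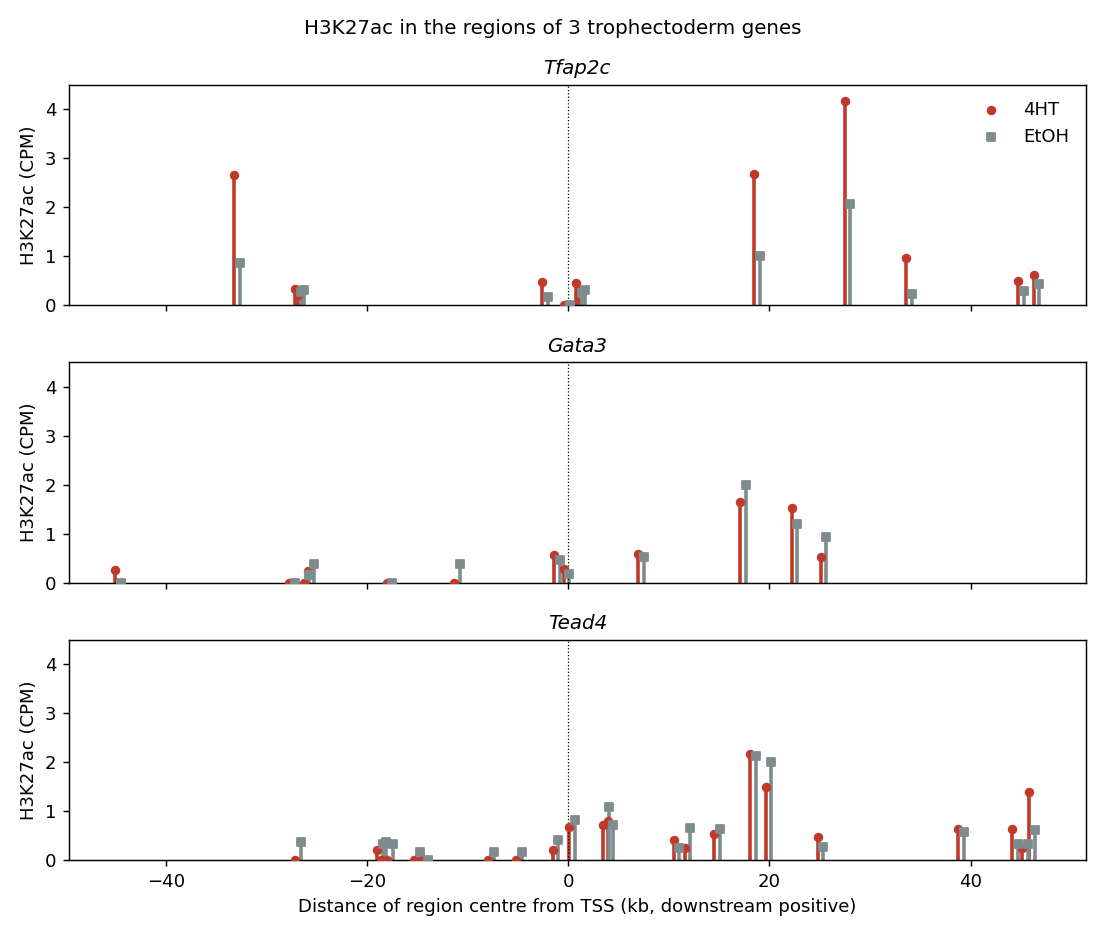
H3K27ac (CPM, y axis) in each region of Tfap2c, Gata3 and Tead4 by the distance of its centre from the TSS (kb, x axis), with 4HT as circles and EtOH as squares. The 3 tall Tfap2c regions reach 4.17, 2.68 and 2.67 in 4HT, while the strongest Gata3 and Tead4 regions have similar heights in both groups.

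Gata3 and Tead4, the next most covered genes, had ratios below 1 with intervals that include 1. Gata3 had a ratio of 0.907 (0.526 to 1.51) and Tead4 one of 0.853 (0.592 to 1.23). The strongest Gata3 region, within the gene 17351 bp downstream of the TSS at chromosome 2, 9861018 to 9861481, had 1.66 in 4HT and 2.0 in EtOH. The strongest Tead4 region, within the gene at chromosome 6, 128282168 to 128282715, had 2.17 in 4HT and 2.12 in EtOH (ratio 1.02, 0.38 to 2.39). Another Tead4 region at 128254411 to 128255023 had 1.40 in 4HT and 0.611 in EtOH (ratio 2.29, 0.561 to 10.3), and the interval is wide. Both genes' intervals reach up to or past the ratio of 1.19 for summed coverage over all genes.

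The remaining members were too sparsely covered to bound a difference. Ets2 had the lowest ratio, 0.554 (0.17 to 1.5), with lower coverage in 4HT in 6 of 9 regions. The share of all regions lower in 4HT is not given. Cdx2 had 0.852 (0.27 to 3.11), Elf5 1.11 (0.34 to 3.48), Eomes 1.08 (0.432 to 2.58), Krt8 1.02 (0.253 to 4.13) and Krt18 1.40 (0.384 to 6.26). All 6 intervals include 1 and extend beyond 1.40 upward and below 0.44 downward, so differences of that size were not detectable at this depth. Summed over the 94 regions the ratio was 1.12 (0.91 to 1.37), and without Tfap2c, left out after its value was seen, it was 0.891 (0.7 to 1.13). The direction of the sum was not stable, since the ratio was 0.955 after scaling to one median and 0.948 both after quantile normalization and within 20 kb.

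**Figure D3:**
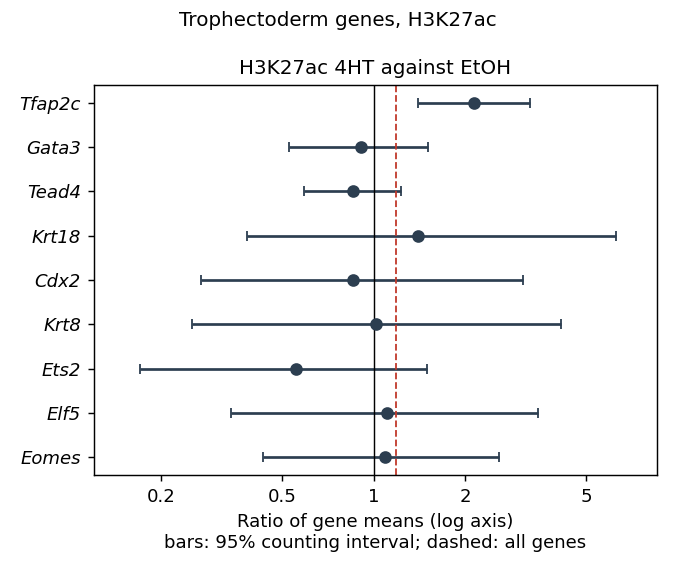
Ratio of H3K27ac gene means in 4HT against EtOH (x axis, log scale) for the 9 genes, with 95% counting intervals and a dashed line at the ratio of all genes, 1.19. Tfap2c is the gene whose interval lies wholly above 1, and the share of all genes with such an interval is not given.

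H2BK120ac in TD against ED changes the first letter of the code with D held. Krt8 was the member past 2-fold, with a gene mean of 0.107 in TD and 0.618 in ED (log2 fold -1.01 on log2(value + 0.4), ratio 0.173, 0.02 to 0.868). None was higher by as much. Over all genes 5.80% were lower by 2-fold or more and 10.1% higher, and 1 gene of 9 cannot be set apart from such a share. Krt8 had coverage in 2 of 7 regions in TD and in 6 in ED, with a summed pile-up of about 2 in TD and 10 in ED. Its log2 fold sat on the threshold and was between -0.98 and -0.53 under 5 of 8 other settings. Elf5 had 0.082 in TD and 0.34 in ED (ratio 0.242, 0.024 to 1.16), with coverage in 2 of 10 regions in TD and in 6 in ED.

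Values of single regions lay on both sides within a gene, with intervals that all include 1. At Tfap2c a region inside the gene, 1372 bp downstream of the TSS at chromosome 2, 172550839 to 172551091, had 2.25 in TD and was listed without coverage in ED. The region 33852 bp downstream had 2.38 in TD and 0.524 in ED (ratio 4.54, 0.673 to 255), while the one 18752 bp downstream had 0.745 in TD and 1.90 in ED (ratio 0.391, 0.042 to 3.23). Over the gene these gave 0.898 in TD and 0.727 in ED (ratio 1.24, 0.646 to 2.27). At Gata3 the region inside the gene at chromosome 2, 9871321 to 9871432, had 2.26 in TD and 0.445 in ED (ratio 5.09, 0.673 to 255). The Tead4 promoter region had 2.06 in TD and 0.523 in ED (ratio 3.94, 0.518 to 219). Among 10 member regions with a summed pile-up of 5 or more, 4 were at least 2-fold higher and 1 lower, against 45.9% higher and 14.3% lower of 7150 such regions of all genes.

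H2BK120ac in TT against ET makes the same change with T held. No member was at least 2-fold higher or lower, against 9.12% higher and 6.16% lower of all genes. The log2 fold was negative in 8 of 9 genes, with a median of -0.27, and 48.5% of all genes were negative with a median of 0.00. Krt18 had the lowest, with 0.18 in TT and 0.605 in ET (log2 fold -0.79, ratio 0.297, 0.005 to 2.35), and Elf5 had 0.083 in TT and 0.282 in ET (ratio 0.294, 0.031 to 1.74). Tead4 had 0.387 in TT and 0.576 in ET (ratio 0.671, 0.377 to 1.27), with lower coverage in TT in 15 of 22 regions. Some of these had equal pile-ups in both groups, since 1 fragment is 0.415 in TT and 0.445 in ET. The share of all regions lower in TT is not given. Krt8, with 0.409 in TT and 0.375 in ET, was the member with a positive log2 fold (0.06), so its difference in TD against ED had no counterpart here, and whether the contrasts differ was not tested. The Tead4 promoter region was again higher, with 2.07 in TT and 0.468 in ET (ratio 4.42, 0.521 to 220), as was the Gata3 region inside the gene, with 2.24 in TT and 0.779 in ET (ratio 2.87, 0.381 to 24.4). They were 2 of 8 member regions with a summed pile-up of 5 or more, and the 2 past 2-fold higher, against 39.8% of 7210 such regions of all genes, and none was lower, against 18.3%.

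**Figure D4:**
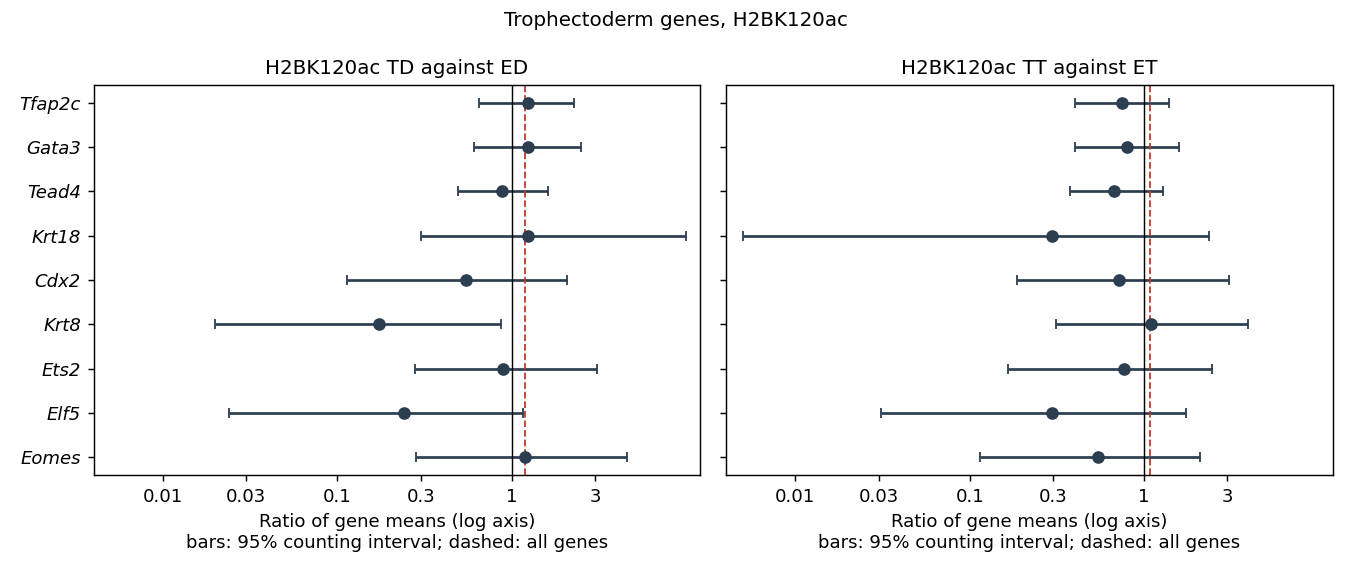
Ratio of H2BK120ac gene means in TD against ED (left) and TT against ET (right) on a log x axis, with 95% counting intervals and a dashed line at the ratio of all genes. Only the Krt8 interval in TD against ED leaves out 1 (0.02 to 0.868), and the share of all genes with such an interval is not given.

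Summed coverage set the trophectoderm genes beside the rest of the genome. In TD against ED the 94 member regions had a ratio of 0.891 (0.665 to 1.19), against 1.18 over all assigned regions. In TT against ET the ratio was 0.700 (0.524 to 0.944), against 1.08, and the interval left out 1. It was the only one of the 5 comparisons to do so, and the share of other gene sets with such an interval is not given. The summed feeder markers were also lower in TT and the summed stem cell markers higher, as given above. Their part in the TT against ET ratio was not tested. At the 82 distal member regions, which make up most of the 94, the ratio was 0.653 (0.473 to 0.894), against 0.939 for all distal regions. At the 12 member promoter regions it was 1.11 (0.466 to 2.57), against 1.6 at all promoter regions. The promoter interval contains 0.653, so a difference between member promoter and distal regions is not resolved. In TD against ED the promoter ratio was 0.897 (0.395 to 2.17), against 1.67 at all promoter regions, and the distal one 0.890 (0.655 to 1.22), against 1.04. The summed pile-up behind the promoter ratios was about 13 in TD and in ED, and about 14 in TT and 12 in ET. Member regions with coverage numbered 60 in TD, 65 in ED, 53 in TT and 63 in ET of 94. These are 63.8% in TD, 69.1% in ED, 56.4% in TT and 67.0% in ET, against 57.4% in TD, 63.8% in ED, 58.7% in TT and 64.2% in ET of all assigned regions. For H3K27ac it was 66.0% in 4HT and 84.0% in EtOH, against 73.1% in 4HT and 81.3% in EtOH.

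**Figure D5:**
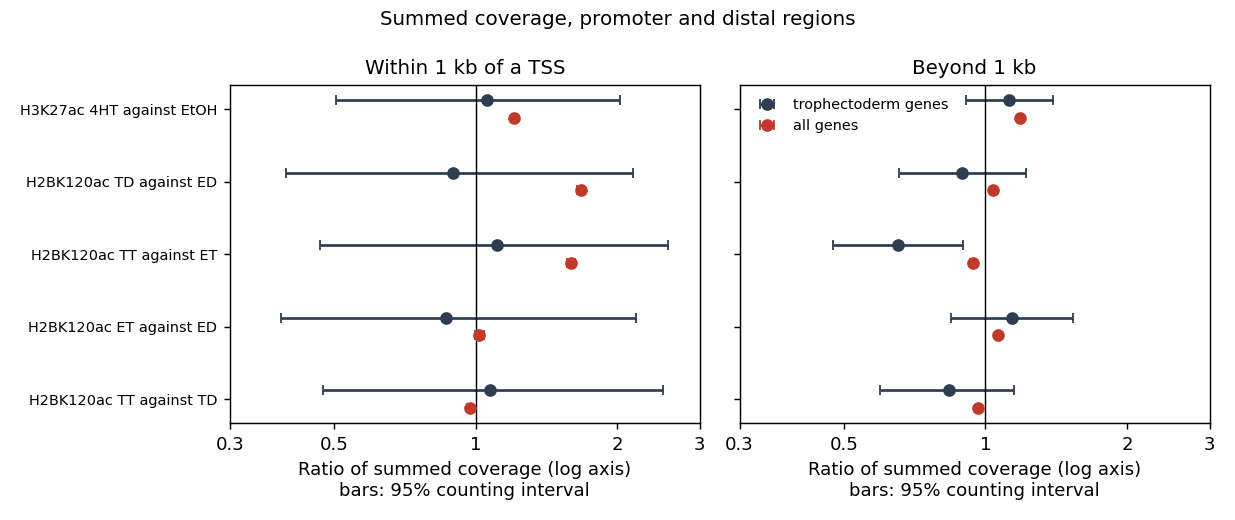
Ratio of summed coverage (x axis, log scale) in each comparison at promoter regions (left) and distal regions (right), for the 9 trophectoderm genes above all genes in each row, with 95% counting intervals. At promoters all genes reach 1.67 and 1.6 in TD against ED and TT against ET, while the member values are 0.897 and 1.11 with wide intervals.

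The other contrasts change the second letter of the code. In ET against ED no member passed 2-fold, against 3.95% higher and 3.57% lower of all genes, and the members' log2 folds ran from -0.39 for Krt8 to 0.29 for Tfap2c. None of 11 member regions with that pile-up passed 2-fold, against 10.0% higher and 5.28% lower of all such regions. In TT against TD none passed either, against 3.19% higher and 2.90% lower, with Krt8 at 0.67 (0.409 in TT, 0.107 in TD) and Krt18 at -0.84 (0.18 in TT, 0.64 in TD) as the extremes. Of 8 such member regions 2 were at least 2-fold lower in TT and none higher, against 6.98% lower and 4.27% higher. Both were Tfap2c regions, the one inside the gene (0.415 in TT, 2.25 in TD) and the one 33852 bp downstream (0.604 in TT, 2.38 in TD). The Tead4 promoter region had 2.07 in TT and 2.06 in TD. These comparisons share columns with the others, so the values are not independent of them.

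By the mean over each mark's columns, most members had the same highest promoter region and the same highest distal region in both marks. The exceptions were the distal regions of Eomes and the promoter regions of Krt8. At Tead4 the marks differed in whether a promoter or a distal region was highest. The Tead4 promoter region was the gene's highest in H2BK120ac in TD and TT but was exceeded in H3K27ac by its region 18382 bp downstream. That downstream region had 0.655 H2BK120ac in TD and 1.18 in ED, and 0.754 in TT and 1.12 in ET. The Gata3 region 17351 bp downstream was strong in both marks, with H2BK120ac of 1.90 in TD and 2.82 in ED, and 1.66 in TT and 3.32 in ET. A region between the keratin genes, 9523 bp upstream of Krt8 at chromosome 15, 102013660 to 102014070, had H2BK120ac of 0.337 in TD and 1.51 in ED, and 1.73 in TT and 1.40 in ET, with H3K27ac of 0.333 in 4HT and 0.182 in EtOH. Its neighbour 10060 bp upstream of Krt18, at 102017909 to 102018403, had 1.26 in TD and 1.22 in ED, and 0.124 in TT and 1.70 in ET, with H3K27ac of 0.69 in 4HT and 0.487 in EtOH. TD was low at the first and TT at the second, and each value is a pile-up of about 4 or less.

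Other trophoblast and Hippo pathway genes, a list of 40 chosen with earlier results of these data known, had 39 members with a region. Of these, 21 were above the median gene in H3K27ac in 4HT and 20 in EtOH, with a list median level of 0.354 in 4HT and 0.292 in EtOH. In H3K27ac none was at least 2-fold higher or lower in 4HT, against 2.40% higher and 1.29% lower of all genes, and the list median log2 fold was 0.14. In TD against ED 1 was higher and 2 lower with a median of -0.12, against 10.1% higher and 5.80% lower of all genes. In TT against ET 2 were higher and none lower with a median of -0.14, against 9.12% higher and 6.16% lower of all genes. Amotl2, which encodes an angiomotin that holds YAP out of the nucleus, was the gene past 2-fold with a summed pile-up of 5 or more. Its gene mean was 1.58 in TD and 0.414 in ED (ratio 3.82, 2.07 to 7.67), and 1.76 in TT and 0.24 in ET (ratio 7.32, 3.27 to 16.6). Its H3K27ac mean was 0.735 in 4HT and 0.605 in EtOH. Among the YAP partners, Tead1 had an H3K27ac mean of 1.52 in 4HT and 0.92 in EtOH, above that of Tead4 in both groups. Tead2 had 0.543 in 4HT and 0.224 in EtOH over 2 regions, above Tead4 in 4HT and below it in EtOH. Tead3 had 0.376 in 4HT and 0.172 in EtOH over 2 regions, below Tead4 in both. Yap1 itself had 0.781 in 4HT and 0.408 in EtOH. Other genes of the list were lower in 4HT, among them Lats1 (0.24 in 4HT, 0.426 in EtOH) and Sav1 (0.104 in 4HT, 0.25 in EtOH). Fgfr2 (0.11 in 4HT, 0.22 in EtOH) and Sox21 (0.05 in 4HT, 0.188 in EtOH) were lower too. No intervals were given for these genes. Over the 6 columns, the genes with the smallest Euclidean distance on the log2 scale were Whamm (0.475), Rictor (0.476) and Nudt5 (0.482) for Tfap2c among 5100 genes. They were Rell1 (0.197), Stox2 (0.26) and Ksr1 (0.277) for Gata3 among 5100, and Abhd2 (0.205), Myof (0.22) and Gm45521 (0.267) for Tead4 among 1366.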

How the data were processed

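CUT&Tag samples of mESCs were grouped by their titles. The authors deposited coverage signal per region, CPM per the file names, with replicates merged into 1 column per group per the file headers. The build was mm10, per the submitters' processing notes, and no source used here names the aligner. Missing values mark regions without coverage and were set to 0. Starts were read as 0-based and printed 1-based. TSS came from RefSeq promoters (17492 genes) or, for 4000 genes, Tfap2c and Tead4 included, from deposited 5 kb TSS windows matched to RefSeq spans (GRCm38.p6). A further 16 IgG columns match no sample and were not used.

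Folds used log2(value + pseudocount), 0.2 for H3K27ac and 0.4 for H2BK120ac (25th percentile of positive values), with a threshold of 2-fold. No low values were filtered. The value most frequent in a column was taken as 1 fragment. In H2BK120ac the lowest value is 0.25 of it, and reading that as 1 fragment would narrow intervals. Ratios carry Clopper-Pearson and levels exact Poisson 95% intervals, for counting error only.

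Named regions were each gene's strongest promoter and distal region per mark and regions past 2-fold with a summed pile-up of 5 or more. For the 3 members of highest level, the 3 genes nearest in Euclidean distance over 6 columns were named, and context genes past 2-fold. Others, such as Gata3 and Tead4 regions below 2-fold and the context genes below 2-fold, were picked with their values in view. The members and lists were chosen with earlier results of these data known. Python 3.11.15, pandas 2.3.3 and scipy 1.17.1 were used.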

Additional observations from a re-analysis of the deposited data

How the results depend on the processing

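No paired analysis was possible because the replicates were merged into 1 column per group, and no replicate could be left out for the same reason. The summed ratio stayed inside its counting interval under the filter on low regions, both scalings and the 20 kb limit in all 5 comparisons, and without Tfap2c, an alternative chosen after seeing the data, in all but H3K27ac, where it was 0.891. In H3K27ac its direction turned, as 1.12 became 0.955 with one median, 0.948 with quantile normalization and 0.948 within 20 kb, and in the other comparisons it kept its side of 1. Reading the lowest H2BK120ac value as 1 fragment, also chosen afterwards, narrowed the TT against ET interval to 0.605 to 0.808. The other intervals then still included 1, at 0.773 to 1.026 in TD against ED, 0.961 to 1.264 in ET against ED and 0.746 to 1.004 in TT against TD. In H3K27ac the count of members at least 2-fold higher was 1 with a width-weighted mean, which set Tfap2c at 1.06, and 0 under the other settings. In TD against ED the count of members lower, Krt8, was 0 with the larger pseudocount, both scalings, missing values left out or a width-weighted mean. In TT against ET, Krt18 made the lower count 1 with the smaller pseudocount (-1.08) and after the filter (-2.00). In TT against TD, Krt18 made it 1 in both of these and with missing values left out (-1.15, -1.66 and -1.02), and Krt8 made the higher count 1 after the filter (1.53). No member past 2-fold turned its direction. The keratin calls rest on summed pile-ups of about 10 or less in each group, and at this depth the regions of Cdx2, Eomes and Elf5 cannot be compared singly. The region just inside the 50 kb limit, at Tfap2c (46557 bp), had 0.613 H3K27ac in 4HT and 0.43 in EtOH, and the one just outside, at Gata3 (50727 bp), had 0.313 in 4HT and 0.165 in EtOH.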
